A study of Mus musculus with 135 samples.

Results

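Of 135 single haematopoietic stem cells (HSCs), 15 were read deeply and yet showed few expressed genes. Of these few-gene cells, 10 came from the old mouse (A8, D1, D7, D11, E1, E12, F7, F12, G5 and H9) and 5 from the young mouse (C1, C8, D7, G12 and H5). They were chosen by name, as the cells that the study set aside for fewer than 3000 genes although their reads were sufficient. They are compared here with the cells of the same age that the study kept, 62 of 74 old cells and 52 of 61 young cells, and a further 2 old and 4 young cells left out for other reasons are not members of either set. All cells came from bone marrow of C57BL/6 mice that carry the Vwf-eGFP reporter, a transgene that marks platelet-primed HSCs, and were sorted by FACS as 7AAD- and Lin- cells that were positive for c-Kit, Sca-1 and CD150 and negative for CD48. The young mouse was 2 to 3 months old and the old mouse 20 to 25 months. cDNA of each cell was made on a Fluidigm C1 chip, which captures polyadenylated RNA of 1 cell per chamber. Because each age is 1 mouse, cells are not replicates of an age, and every difference below is a description of these cells with no p-value.

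HSCs sit at the top of the blood lineage, divide rarely, and hold less RNA than the progenitors they give rise to. In single-cell libraries without molecular identifiers, the reads of a cell are shared out among the cDNA molecules that were captured and amplified, so that more sequencing adds reads to the same molecules but no new molecules. The number of genes found in a cell is therefore set both by the RNA of the cell and by its capture and amplification, and these cannot be told apart from counts alone.

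A gene was called expressed in a cell when log2(CPM + 1) was above 2, where CPM is counts per 1000000 reads on genes of that cell. The old few-gene cells expressed 2052 to 2931 genes (median 2778), against 2964 to 6267 (median 3901.5) in the kept old cells. The 5 young few-gene cells expressed 2218 (C1), 1999 (C8), 2760 (D7), 2867 (G12) and 2532 (H5) genes, against 2973 to 5600 (median 4115.5) in the kept young cells. These numbers chose the members and are no finding. The few-gene cell nearest to the limit was D1 in the old mouse, with 2931 genes, and G12 in the young mouse, with 2867, whereas the kept cells nearest to it, old C5 and young G7, had 2964 and 2973. The study's limit was set on its own count of genes, so a kept cell can lie under 3000 here.

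Sufficient reads were also part of the choice, so the depth of these libraries and their gene number at a given depth describe the rule and are no finding. Reads counted on genes ranged from 1877484 to 5176498 (median 3512810) in the 10 old few-gene cells and from 276316 to 4086659 (median 2116020) in the kept old cells, and 9 of 10 few-gene cells lay above the median of the kept cells. In the young mouse the range was 2552215 to 5046582 (median 4369379) in the few-gene cells and 273236 to 5688706 (median 2798990) in the kept cells. When each cell was brought to 250000 reads, the old few-gene cells held 2231 to 3162 genes with a read (median 3027) against 3134 to 6087 (median 4214), and the young ones 2216 to 3041 (median 2754) against 3198 to 6078 (median 4308). At this equal depth 9 of 10 old and 5 of 5 young few-gene cells lay below every kept cell of their age, as the choice of few genes at sufficient reads leads to.

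**Figure D1:**
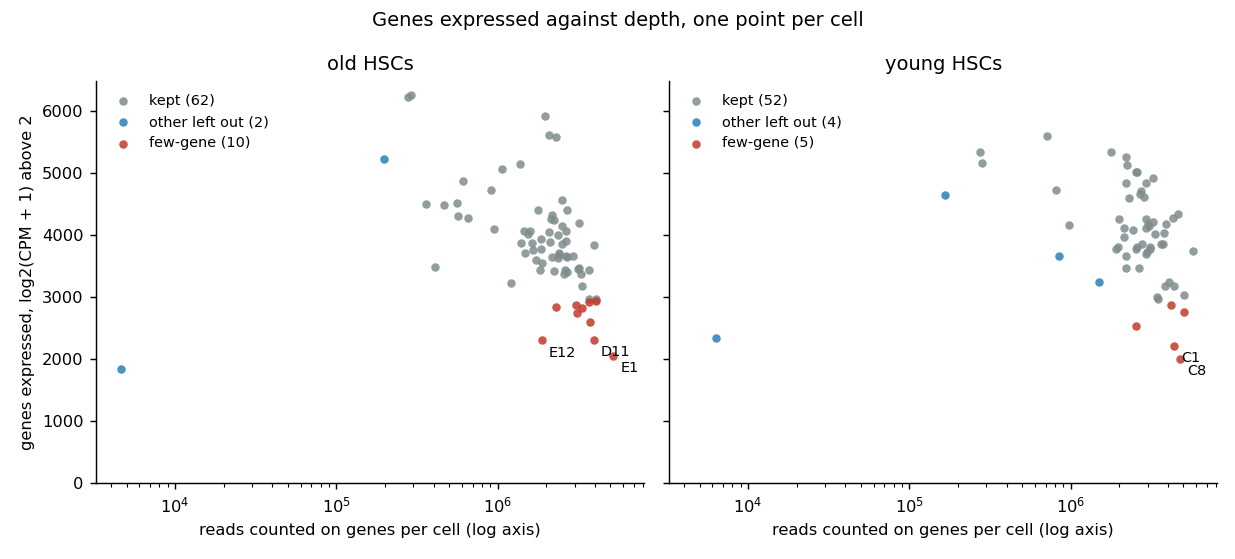
Genes expressed in a cell against the reads counted on genes (log axis), for the old (left) and young (right) mouse, with few-gene cells in red, kept cells in grey and other cells left out in blue. The 10 old few-gene cells lie between 2052 and 2931 genes at 1877484 reads or more, and most kept cells of similar depth lie above them.

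The 15 cells were not alike, and 3 of them stood apart from the rest. Malat1, a long noncoding RNA held in the nucleus, had 129 CPM in old E1, 683 CPM in old D11 and 898 CPM in young C8, whereas the lowest kept cell had 1485 CPM in the old mouse and 3296 CPM in the young. Malat1 in the other 8 old few-gene cells ranged from 5053 CPM in E12 to 33454 CPM in F12. Kcnq1ot1, another chromatin-bound noncoding RNA, showed the same 3 cells at the bottom, with log2(CPM + 1) of 1.18 in D11, 4.79 in E1 and 4.77 in C8. The lowest kept cells had 6.64 (old) and 7.67 (young). Neither noncoding RNA overlapped between these 3 cells and the kept cells.

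Genes of odorant and vomeronasal receptors, which serve smell and have no known role in HSCs, were read at a low level in every kept cell, and the same 3 cells had the least. The 90 such genes in the table summed to 1.02 CPM in D11 (4 reads), 4.06 CPM in E1 (21 reads) and 5.87 CPM in C8 (28 reads). The kept cells had 11.1 to 1131 CPM (old, median 292) and 57.98 to 1497 CPM (young, median 354), and young D7, with 14.5 CPM, also lay below every kept young cell. Young H5 stood at the other end, with 1416 CPM. Vmn1r58, a vomeronasal receptor gene, was expressed in all 62 kept old and all 52 kept young cells, yet had no read in D11 or E1 and a level of 0.51 in C8.

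Genes found in every kept cell were also counted in the few-gene cells. The choice of cells with few expressed genes leads them to lack more such genes, so this count is no independent result. These genes include Malat1, Kcnq1ot1, Vmn1r58, Srsf2 and Sfpq, which are also named singly here. Of 584 genes expressed in every kept young cell, D11 lacked 243 and E1 lacked 189, the other 8 old few-gene cells lacked 6 to 52, and the kept old cells 0 to 54 (median 2). D11 and E1 lacked 143 of these genes in common, 58.8% of the D11 list and 75.7% of the E1 list. Of 433 genes expressed in every kept cell of both ages, D11 lacked 139 (32.1%) and E1 89 (20.6%), with 62 in common. Whether such an overlap exceeds that of unrelated cells was not tested. Of 491 genes expressed in every kept old cell, C8 lacked 93, and C1, D7, G12 and H5 lacked 26, 10, 12 and 16 against 0 to 11 in the kept young cells. Among the 433 genes expressed in every kept cell of both ages, 24 were missing from all of D11, E1 and C8. They include Sod2 (the mitochondrial superoxide dismutase), Dkc1 (dyskerin, a pseudouridine synthase of small nucleolar particles), Grk4 (a receptor kinase) and Vmn1r58. Genes with a low mean in the kept cells of the other age were lacked most. An old few-gene cell lacked at most 196 of 272 such genes at 6 or less and 7 of 163 above 8. For a young one these were at most 68 of 202 and 13 of 161. A pair of splicing factors separated the cells further. Srsf2 was at 1.48 in D11 and 0.66 in E1 on the log2(CPM + 1) scale and Sfpq at 0.33 and 0.47, below all 62 kept old cells (6.17 and 3.49 or more), whereas C8 had 10.20 and 9.43, inside the range of the kept young cells.

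Ribosomal protein genes took 12.5%, 11.6% and 15.4% of the counts of D11, E1 and C8, above the median of the kept cells of their age (8.37% old, 8.21% young). These 3 cells and the genes shown for them were chosen after their values were seen. What sets the libraries apart was not tested, and the results below are given with and without them where a value moves.

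**Figure D2:**
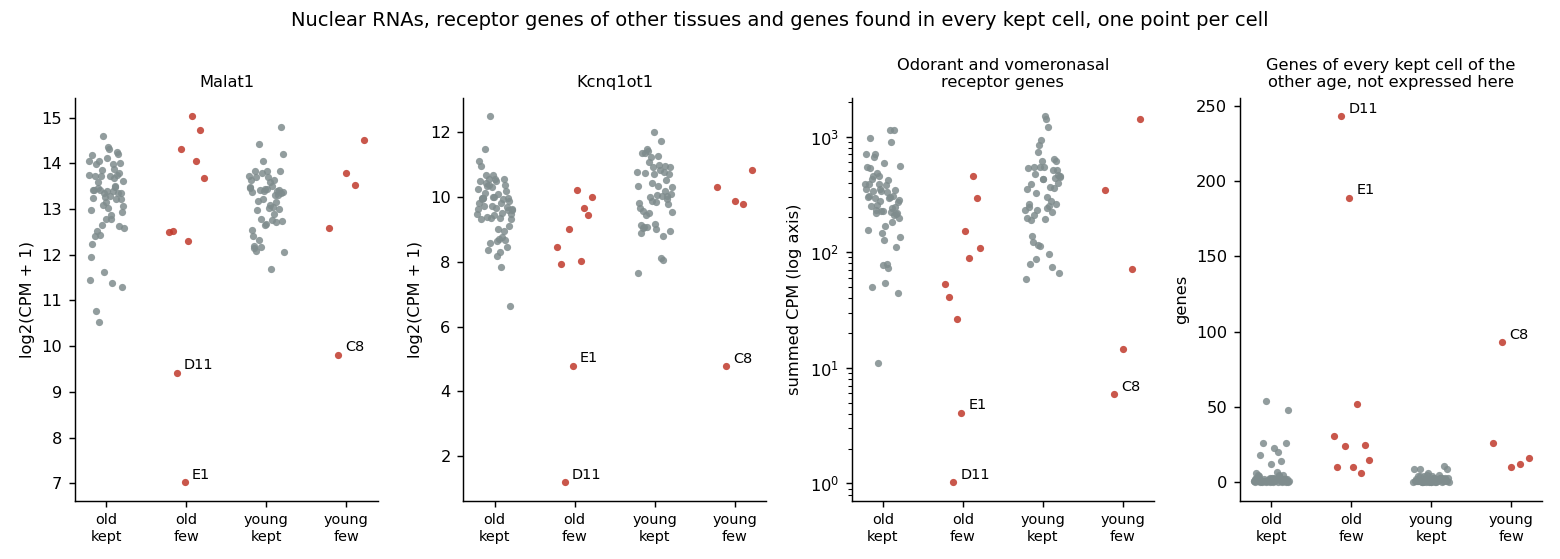
From left to right, Malat1 and Kcnq1ot1 as log2(CPM + 1), the summed CPM of odorant and vomeronasal receptor genes (log axis), and the number of genes expressed in every kept cell of the other age that a cell did not express, with 1 point per cell, few-gene cells in red and kept cells in grey. Old D11, old E1 and young C8 lie outside the kept cells in all 4 panels, with 243, 189 and 93 genes missing.

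The few-gene cells carried HSC genes, and single cells among them also held markers of mature blood cells. Of 40 genes of an HSC list, 18 to 27 (median 23) were expressed per old few-gene cell, against 19 to 33 (median 25.5) in kept old cells. The young few-gene cells expressed 14 (C1), 15 (C8), 17 (D7), 21 (G12) and 19 (H5), against 15 to 32 (median 23.5). The ranges overlapped in both ages. The summed share of counts on the HSC list was 0.836% to 2.90% (median 1.86%) in the old few-gene cells and 0.760% to 2.83% (median 1.64%) in the kept old cells, and in the young mouse 0.642%, 2.73%, 1.24%, 1.60% and 1.15% in C1, C8, D7, G12 and H5, against a median of 1.17%. Of the sort markers, Slamf1, which encodes CD150, was expressed in 1 of 10 old and 0 of 5 young few-gene cells and in 15 of 62 and 9 of 52 kept cells, so its absence in single cells of these libraries is common. Of 9 macrophage markers 0 were expressed in any few-gene cell and 8 had no read in the few-gene cells of each age, and of 4 mast cell and basophil markers 1 was expressed in 1 old cell and 1 in 1 young cell. In old and young few-gene cells, 4 and 3 of 11 erythroid markers, 2 and 2 of 5 B cell markers, 4 and 2 of 8 T and NK cell markers and 8 and 3 of 10 dendritic cell markers were expressed in at least 1 cell. Such counts are to be read beside those of all 15181 genes, of which 8400 (old) and 6094 (young) were expressed in at least 1 few-gene cell. Klrb1c, an NK cell receptor, was at 9.33 in old D11 and 9.34 in old D7, and Nkg7, a protein of cytotoxic granules, at 8.93 in old E1. Lck, the T cell kinase, was at 5.50 in old A8 and 6.39 in young C1, and Cd79b, a chain of the B cell receptor, at 4.24 in A8 and 8.36 in old D1. Hba-a1 and Gata1 (erythroid), Blnk and Vpreb1 (B cell), and Cd4 and Cd8a (T cell) had no read in any few-gene cell and were picked for that. Only 11 of 20 listed erythroid, 5 of 14 B cell, 8 of 17 T and NK cell and 9 of 16 macrophage markers were among the counted genes. The absence of the other markers cannot be seen here. Of 10 granulocyte genes 3 were expressed in some old few-gene cell and 3 in some young one, and Ngp and S100a9 had no read. Csf3r, the G-CSF receptor gene, was expressed in 9 of 10 old and 5 of 5 young few-gene cells and in every kept cell, and Prtn3, the gene of proteinase 3, in 6 of 10 and 4 of 5. The granulocyte list took 0.000875% to 0.281% of the counts of old few-gene cells and 0.00307% to 0.276% in kept old cells, and the erythroid list 0.00832% to 0.345% against 0.0233% to 0.794%. The old few-gene cells expressed 0 to 3 progenitor genes (median 0.5), against 0 to 4 (median 1) in the kept old cells, 0 to 2 B cell genes (median 0) against 0 to 2 (median 1), 0 to 2 T and NK cell genes (median 1) against 0 to 4 (median 1), and 1 to 6 dendritic cell genes (median 3) against 1 to 9 (median 5). The part of such transcripts in the gene number was not tested.

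Transcripts of the sex chromosomes were compared with those in the kept cells of the same mouse. At least 1 Y-linked gene among Uty, Kdm5d, Ddx3y and Eif2s3y was expressed in 9 of 10 old few-gene cells, the exception being E1, and in 0 of 5 young few-gene cells. Xist, the RNA that silences an X chromosome, had log2(CPM + 1) of 11.55 in young C1, 0.51 in C8, 3.52 in D7, 1.28 in G12 and 9.49 in H5, whereas it was expressed in 50 of 52 kept young cells. Among the old few-gene cells Xist was above the limit in E12 (3.67) and F7 (3.14), as in 8 of 62 kept old cells. No Y-linked gene was expressed in 4 of 62 kept old and 50 of 52 kept young cells. By these transcripts the old and the young mouse appear to differ in sex, so age and sex cannot be told apart here.

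Most HSC list members lay below the kept cells, 28 of 38 tested in the old and 29 of 39 in the young mouse, where 81.3% and 80.9% of all tested genes did. The genes named here beyond Meis1, Gata2 and Ifitm3 were chosen after their values were seen. Ly6a, which encodes the sort marker Sca-1, was higher by 1.31 in the old few-gene cells, 1 of 3 HSC list members higher by at least 1. Meis1, a homeobox factor required for HSC maintenance (GRCm38 chr11:18880428-19019651), was lower by 3.92, with 1.64 to 11.34 (median 7.24) against 2.57 to 11.99 (median 10.60). Meis1 was at 3.00 in A8, 2.08 in D1, 1.64 in E1 and 1.97 in F7 and at 6.73 or more in the other 6 old few-gene cells, so that a subset of the cells was low.

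The young few-gene cells ordered these genes otherwise. Meis1 was at 9.47, 12.22, 8.92, 6.87 and 8.74 in C1, C8, D7, G12 and H5, a mean of 0.50 below the kept young cells. Gata2, a zinc finger factor of HSC maintenance, was at 1.10, 11.12, 0.48, 2.11 and 0.48 and so high in C8 alone, with a mean 4.05 below that of the kept young cells. Gata2 in the old mouse was lower by 1.93. Cd27, a TNF receptor family member of stem and progenitor cells, was expressed in 5 of 5 young few-gene cells and lay 2.48 above the kept young cells, but 0.91 below the kept cells in the old mouse. Ifitm3, an interferon-inducible membrane protein that is high in HSCs, was expressed in all 15 few-gene cells, with a difference of 0.44 (old) and 1.13 (young). Vwf, the gene of the reporter's promoter, was expressed in 5 of 10 old and 0 of 5 young few-gene cells, against 37 of 62 and 30 of 52 kept cells.

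Counts were concentrated on fewer genes. The 100 highest genes of a cell took 32.6% to 44.5% (median 36.8%) of the counts in old few-gene cells, against 21.7% to 36.7% (median 28.8%) in the kept cells, and 5 of 10 few-gene cells lay above every kept cell. In the young mouse the shares were 42.6%, 41.3%, 37.8%, 33.96% and 45.3% in C1, C8, D7, G12 and H5, against a median of 27.5% in the kept cells. The highest genes that made up 50% of the counts numbered 124 to 218 genes (median 177) in the old few-gene cells and 186 to 517 (median 288.5) in the kept cells. These shares follow closely from a low gene number and are no independent result.

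The highest gene of 12 of the 15 cells was Rn45s, the ribosomal RNA precursor, which took 1.76% to 5.23% (median 3.31%) of the counts of old few-gene cells and 1.30% to 4.69% (median 2.51%) of kept old cells. Malat1 was the highest gene in old F12 and young H5, and Actb, which encodes cytoplasmic actin, in young C1. Ribosomal protein genes took 5.86% to 12.8% (median 11.3%) of the counts of old few-gene cells against 4.60% to 12.3% (median 8.37%) in kept cells, with 6 of 10 few-gene cells above that median. The young few-gene cells had 7.02%, 15.4%, 10.5%, 9.81% and 11.03% in C1, C8, D7, G12 and H5. The ranges overlapped in both ages.

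Most genes lay below the kept cells, which the choice of cells with few expressed genes fixes and which is given as the background of the values below. Of 8882 genes tested in the old mouse, 3553 were lower by at least 1 in mean log2(CPM + 1), which is 40% of the tested genes, and 278 were higher by at least 1, which is 3.13%. Of 9338 genes tested in the young mouse, 4369 were lower, which is 46.8%, and 539 were higher, 5.77%. The median difference was -0.81 in the old and -0.93 in the young mouse, and 81.3% and 80.9% of the tested genes had a difference below 0. Under TMMwsp scaling, which sets the cells' scale by their shared genes, the medians moved to -0.39 and -0.56, so that the size of the difference depends on the scale. TMMwsp scaling gave 880 higher and 2054 lower genes in the old mouse and 1452 higher in the young, the log2 ratio of mean CPM gave 1311 (old) and 1212 (young) higher, and without D11 and E1 the old mouse had 427 higher. A total of 1513 genes tested in the old mouse were expressed in none of the 10 few-gene cells, and 22 of these were expressed in over 50% of the kept old cells.

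The choice of cells also fixes a deficit in the share of genes expressed, which is described here by the level of a gene. Genes were placed in bins by their mean level in the kept cells of the other age, which shares no cell with the comparison. In the old mouse, genes of a level between 4 and 5 were expressed in 50.2% of few-gene cell and gene pairs and in 72.8% of kept pairs, genes between 2 and 3 in 21.5% and 39.03%, and genes above 10 in 98.7% and 99.9%. The corresponding shares of the young mouse were 50.8% and 75.1%, 20.3% and 42.003%, and 95.6% and 99.4%. Genes above 10 are expressed in nearly every kept cell, which leaves little room for a gap. As the ratio of the few-gene to the kept share, the old mouse had 0.55 between 2 and 3 and 0.69 between 4 and 5. Thinning every cell to 250000 reads left the level 4 to 5 shares at 51.8% and 73.7% (old) and 52.6% and 75.5% (young). Levels in the cells that did express a gene moved less and not one way. In the old mouse, genes of a level between 1 and 2 averaged 6.15 in the few-gene cells that expressed them and 5.41 in such kept cells, genes between 7 and 8 averaged 7.28 and 7.72, and genes above 10 averaged 10.66 and 10.72.

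**Figure D3:**
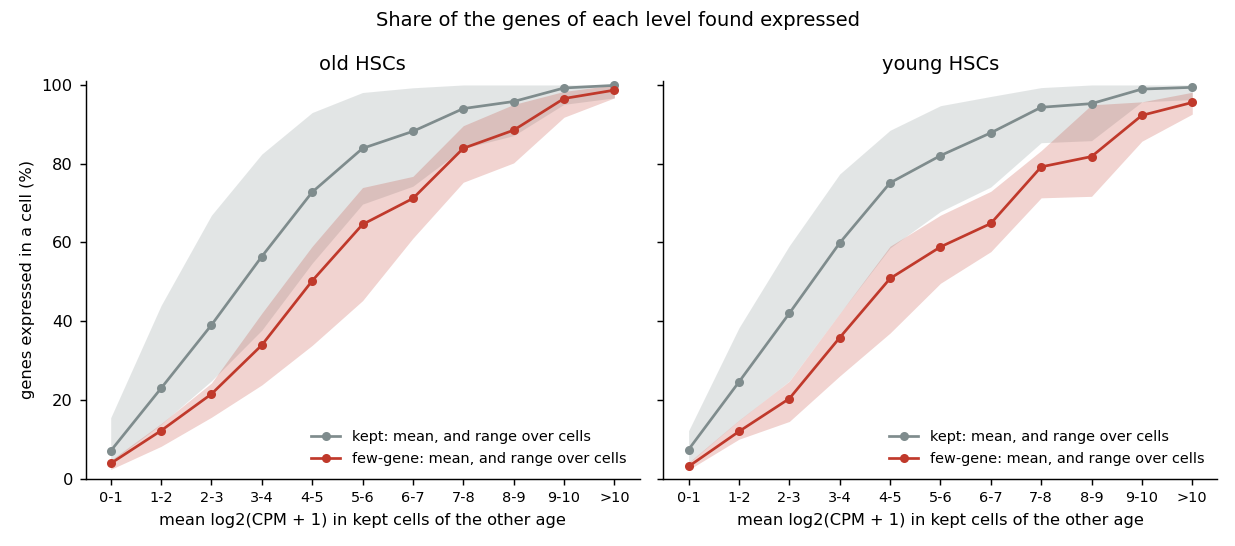
Share of genes expressed in a cell (y axis, percent) for genes binned by mean log2(CPM + 1) in the kept cells of the other age (x axis), with the mean as a line and the range over cells as a band, few-gene cells in red and kept cells in grey. In the old mouse 50.2% of genes of level 4 to 5 were expressed per few-gene cell against 72.8% per kept cell, and above level 10 the shares were 98.7% and 99.9%.

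The lowest genes of the old few-gene cells were of varied function. Ube2v1, a ubiquitin conjugation cofactor (GRCm38 chr2:167607639-167632020), was expressed in 0 of 10 few-gene cells and in 50 of 62 kept cells (80.6%), a difference of -5.48. Its 8 reads in the 10 cells together came to 0.234 CPM, against 213 CPM over the kept cells. Syncrip, an RNA-binding hnRNP protein, and Gm7102, a predicted gene, were likewise expressed in 0 of 10 cells, against 45 and 53 of 62 kept cells. The others of the 8 lowest genes were Usp15 and Otub1, both deubiquitinases, Tsc22d1, a transcriptional regulator, Ndufv2, a complex I subunit, and Cdc42bpa, a kinase of the cytoskeleton, with differences from -4.88 to -4.15. In the young few-gene cells Ube2v1 was expressed in C8 alone, at 9.06, and Syncrip in 3 of 5 cells. Gm7102 may share reads with similar copies elsewhere, and its value is uncertain.

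The highest gene was Rabggtb, the beta subunit of the enzyme that attaches lipid anchors to Rab proteins, with a difference of 3.84. Rabggtb was between 7.78 and 10.57 in 6 old few-gene cells and had no read in the other 4, and 15 of 62 kept old cells expressed it. It had no read in any of the 5 young few-gene cells. Eif1a, a factor of start codon scanning, was the most even of the 8 highest genes. It was expressed in 9 of 10 old few-gene cells (90%) at 6.13 to 11.68 and in 43 of 62 kept cells (69.4%), a difference of 3.53. Eif1a in the young mouse was expressed in 1 of 5 few-gene cells, G12, and was lower by 2.33. The others were Pes1 (ribosome assembly), Mob2, Chka (choline kinase), Thumpd3, Patz1 (a zinc finger repressor) and Vkorc1 (the vitamin K reductase), with differences of 2.69 to 3.09, each expressed in 4 to 7 of 10 cells.

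The old and the young differences were weakly related across genes. Over 8304 genes tested in both ages, the old and the young difference had Pearson's r of 0.14 and a Spearman's rank correlation of 0.14 across genes, and r was 0.063 after the median difference of genes of similar kept level had been taken off. Genes are not independent replicates, and each age was compared within its own cells. Lower by at least 1 in both were 1970 genes, 56.8% of the 3470 lower in the old and 47.9% of the 4113 lower in the young mouse. Of all tested genes, 40% were lower in the old and 46.8% in the young mouse, and 3.13% and 5.77% were higher. Higher in both were 24 genes, 9.38% of 256 and 4.89% of 491. Of the 256 genes higher in the old mouse, 117 were lower by at least 1 in the young. This is near the share of all genes tested in both, of which 4113 of 8304 were lower in the young mouse.

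The genes lowest in both ages were Sep15 (a selenoprotein of the endoplasmic reticulum), Cct7 (a subunit of the actin and tubulin chaperonin), Cers2 (ceramide synthase), Twf1 (an actin monomer binder), Rab14 (a vesicle GTPase), Tgoln1 (a trans-Golgi protein), Rock1 (a kinase of actomyosin contraction) and Pde4b (a cAMP phosphodiesterase). Sep15 was expressed in 2 of 10 old and 0 of 5 young few-gene cells, against 47 of 62 and 36 of 52 kept cells, with differences of -4.02 and -4.80. Rock1 differed by -3.87 and -3.65, but its young difference was 0.38 as the log2 ratio of mean CPM, since G12 alone held it at 11.46. The genes highest in both were Mfsd6, Dcun1d5, Ube2r2, Dvl2 (a Wnt signal transducer), Bbx, Gpr125, Peak1 and Rac1, a small GTPase of the actin cytoskeleton. Rac1 was expressed in 6 of 10 and 5 of 5 few-gene cells, against 38 of 62 and 41 of 52 kept cells, with differences of 1.26 and 2.17. These genes were picked for their size in the same cells, and no test was made on them.

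Some of the largest young differences concerned genes picked after their values were seen. Sept2, a septin of the cytoskeleton, lay between 0.88 and 2.15 in the 5 young few-gene cells although 50 of 52 kept young cells expressed it at a median of 11.33, a difference of -9.14. The same gene was at 9.93 or more in 9 of 10 old few-gene cells. Cdc42se1, a small effector of the GTPase Cdc42, had no read in C1, was at 6.85 to 9.85 in D7 and G12 and above 10 in C8 and H5, and was expressed in 10 of 52 kept cells, a difference of 6.30. Kmt2a, which encodes the histone methyltransferase MLL, was at 7.05 or more in all 5 and lay 3.62 above the kept young cells. Each of these values rests on 5 cells of 1 mouse.

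**Figure D4:**
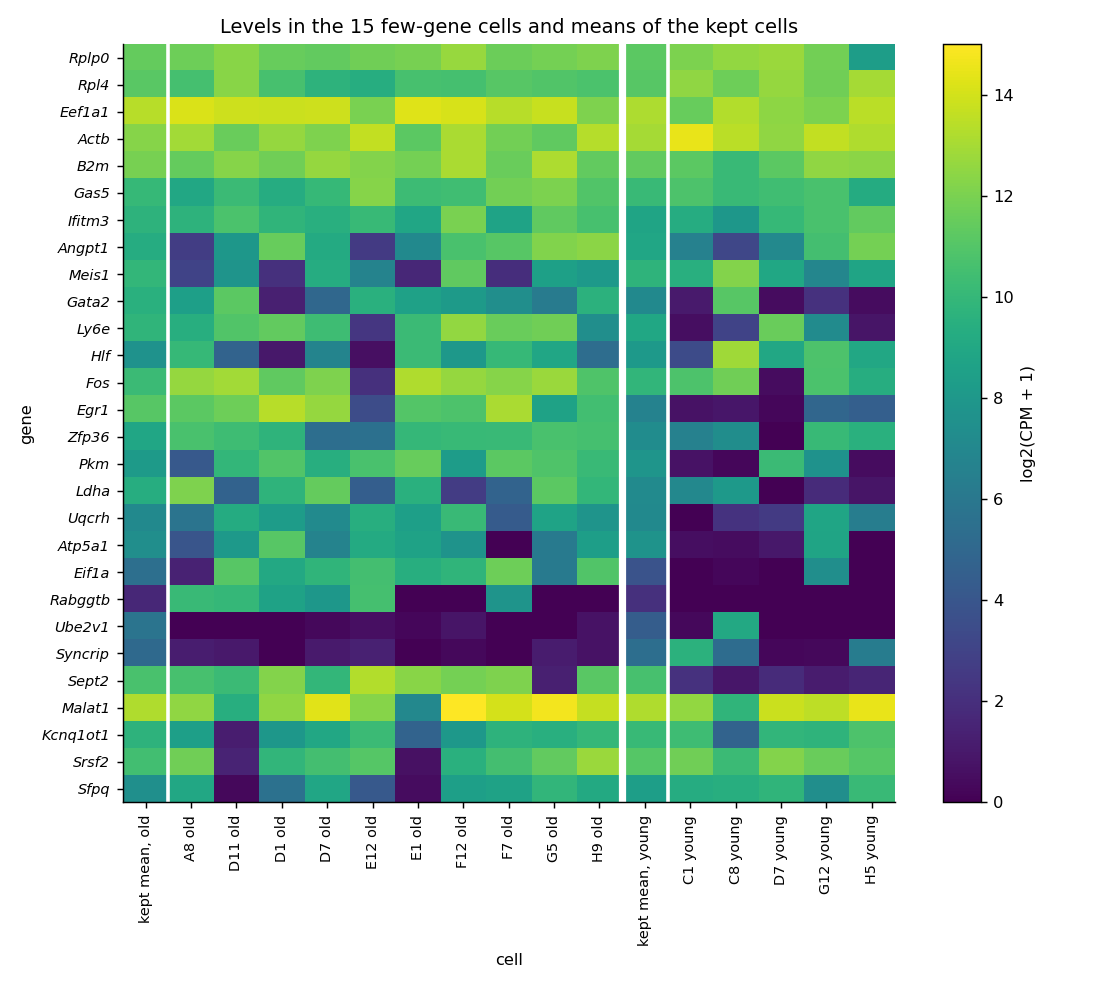
Levels (log2(CPM + 1), colour scale) of 28 named genes (rows) in the 15 few-gene cells and, at the left of each age, the mean of the kept cells. Rplp0, Eef1a1 and Actb are at 8.346 or more in every cell, Ube2v1 and Syncrip are low in all 10 old cells, Sept2 is low in the 5 young cells, and Malat1, Kcnq1ot1, Srsf2 and Sfpq are low in old D11 and E1.

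Groups of genes differed from the median of all genes in both directions. Counts of list members lower by at least 1 are to be read beside 40% (old) and 46.8% (young) of all tested genes. Those of members higher are to be read beside 3.13% and 5.77%. Ribosomal protein genes, which encode the subunits of the ribosome, had the highest median difference of the lists with at least 10 tested genes, 0.24 in the old and 0.12 in the young mouse against -0.81 and -0.93 over all genes. Of 80 tested members 0 were higher and 2 lower by at least 1 in the old mouse, and of 82 in the young mouse 7 were higher and 13 lower. Rplp0, a protein of the ribosomal stalk, was at 11.41 to 12.68 (median 11.79) in the old few-gene cells and at 9.85 to 12.56 (median 11.46) in the kept ones. Without C8 the young median was -0.084, so its sign rested on that library. Ribosomal protein genes have many processed copies in the genome, and reads could have been split among them by the counting.

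Of the translation factors, 27 of 60 were lower and 1, Eif1a, higher in the old mouse, a median of -0.82, and 33 of 60 were lower and 4 higher in the young (median -1.10). The lower members are 45% and 55% of the list, beside 40% and 46.8% of all tested genes. Eef1a1, the elongation factor that brings tRNA to the ribosome, was at a median of 13.81 in old few-gene cells against 13.43 in kept ones and differed by 0.14. Cytoskeletal genes had medians of -0.55 and -0.62, with 5 of 28 lower and 2 higher in the old and 12 of 28 lower and 3 higher in the young mouse. The lower cytoskeletal genes are 17.9% and 42.9%. Actb differed by 0.072 and 0.48, and Capzb, chosen after its values were seen, which caps actin filaments, was expressed in all 5 young few-gene cells and lay 2.27 above the kept ones.

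Of the lists with at least 10 tested genes, those of the proteasome, G2/M and splicing had the lowest medians in the old mouse. Proteasome genes, whose products degrade ubiquitin-tagged proteins, had 26 of 39 members lower and 1 higher, a median of -1.59, and in the young mouse 26 of 38 lower and 1 higher, a median of -1.75. The one higher in the old mouse, Psma6, had a difference of 1.96, was expressed in 8 of 10 few-gene cells, and it was lower by 3.37 in the young. Splicing genes had 36 of 64 (old) and 38 of 64 (young) lower, with medians of -1.17 and -1.53. The lower members are 66.7% and 68.4% of the proteasome list and 56.25% and 59.4% of the splicing list. Of all tested genes, 40% and 46.8% were lower. Srsf3, a splicing factor, differed by -2.42 in the old and 0.22 in the young mouse. Against kept levels of the same height the medians of both lists were smaller in size, -0.27 and -0.29 for the proteasome and -0.29 and -0.32 for splicing.

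Oxidative phosphorylation genes, which encode the respiratory chain and ATP synthase, gave unlike values in the ages. In the old mouse 33 of 74 members were lower and 2, Cox7c and Atp5o, higher by at least 1, a median of -0.71. In the young mouse 55 of 74 were lower and 2 higher, a median of -2.25. The lower members are 44.6% and 74.3%, beside 40% and 46.8% of all tested genes. Against kept levels of the same height the list medians were 0.33 (old) and -0.77 (young). Atp5a1, the alpha subunit of ATP synthase, was at 0.54, 0.51, 0.99, 8.78 and 0.00 in C1, C8, D7, G12 and H5, a difference of -5.53, and at a mean 0.42 below the kept cells in the old mouse. Uqcrh, a hinge protein of complex III, was expressed in all 10 old few-gene cells and lay 0.82 above the kept cells but 3.14 below them in the young mouse. The number of the 75 genes expressed per cell was 26 to 44 (median 37.5) in old few-gene cells against 36 to 68 (median 50.5), and 19 to 37 (median 29) against 31 to 71 (median 53) in the young mouse. Such numbers follow the choice of cells. Over all genes the medians were 2778 against 3901.5 in the old and 2532 against 4115.5 in the young mouse. The difference between the ages was not tested.

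Glycolysis genes had medians of -1.07 (8 of 15 lower, 1 higher) and -1.72 (10 of 16 lower, 1 higher). The lower members are 53.3% and 62.5%, beside 40% and 46.8% of all tested genes. Pkm, pyruvate kinase, was expressed in 10 of 10 old few-gene cells, 1.53 above the kept cells, and was 3.92 below them in the young ones. Gapdh differed by 0.73 and -3.18, and in the young mouse its levels in C1, C8, D7, G12 and H5 were 0.54, 6.70, 5.79, 8.17 and 7.15.

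Stress lists are read against the medians of all genes, -0.81 and -0.93, and the shares of all genes lower, 40% and 46.8%. Endoplasmic reticulum stress genes had 3 of 15 members lower in the old mouse (median -0.55) and 11 of 14 in the young (median -2.26). Hspa5, the chaperone BiP, was at 0.00, 0.70, 9.19, 0.31 and 0.00 in C1, C8, D7, G12 and H5, and Calr, calreticulin, was likewise expressed in D7 alone (6.35). The summed share of the list was 0.0667% of counts or less in every young few-gene cell, against a median of 0.213% in kept young cells, and 3 of 5 lay below every kept cell. Heat shock genes had 6 of 13 lower in the old (median -0.75) and 11 of 13 in the young (median -1.85), with Hsp90ab1 at differences of 0.16 and -2.86. Lists of p53 targets and apoptosis genes (10 of 18 lower in the old and 8 of 19 in the young mouse), interferon response genes (9 of 27 and 11 of 27) and MHC class I genes (5 of 11 and 5 of 11) had medians of -1.15 and -0.91, -0.54 and -0.79, and -0.77 and -0.88.

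Immediate early genes, which respond to stimuli and to cell isolation within minutes, had the highest median after the ribosomal list among those lists in the old mouse, with 8 of 28 lower and 4 higher (Fos, Fosb, Dusp1 and Klf2) and a median of -0.27. The sign of that median is not stable, since it was 0.012 for the log2 ratio of mean CPM, 0.53 under TMMwsp and 0.13 without E12. Fos was at 10.89 to 13.19 in 9 old few-gene cells and at 2.07 in E12, and Egr1 at 8.66 to 13.37 in the same 9 and at 3.48 in E12. The summed share of the list was 0.0237% of counts in E12, below every kept old cell, and 1.13% to 2.86% in the other 9. Ier3 was expressed in 0 of 10 old few-gene cells and 41 of 62 kept cells, and Junb in 9 of 10. In the young mouse 13 of 24 list members were lower and 0 higher, a median of -1.13, and Egr1 was at 0.75, 0.88, 0.26, 4.93 and 4.54 in C1, C8, D7, G12 and H5. The lower members are 28.6% (old) and 54.2% (young), beside 40% and 46.8% of all tested genes.

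Of the cell cycle lists, G2/M genes had 23 of 31 lower in the old (74.2%, median -1.26) and 36 of 51 in the young mouse (70.6%, median -1.47), against 40% and 46.8% of all tested genes, and 0 and 1 were higher. S-phase genes had 14 of 29 (48.3%, median -0.99) and 30 of 42 (71.4%, median -1.39) lower, and 0 were higher in either age. Against kept levels of the same height the medians were -0.32 and -0.27 for G2/M and -0.067 and -0.25 for S phase. By share of counts, 7 of 10 old and 4 of 5 young few-gene cells lay below the median of the kept cells for G2/M and 6 of 10 and 4 of 5 for S phase. Cyclin genes Ccna2 and Ccnb1 were expressed in 0 of 15 few-gene cells, against 2 and 4 of 62 kept old and 11 and 11 of 52 kept young cells, and Cdk1 in 0 old and 1 young few-gene cell, C1 (2.65). Cdc25c was expressed in 1 old and 1 young cell. E12 differed from the rest, with 1.42% of its counts on S-phase genes, above every kept old cell, while the other 9 old few-gene cells had 0.0174% to 0.405%. In E12 the list members Pcna, Rfc2, Tyms, Atad2 and Brip1 had 0, 2, 111, 69 and 64 reads. The share therefore rests on other members, and how many was not looked at.

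Chromatin modifier genes had 13 of 26 (old) and 16 of 26 (young) lower, with medians of -0.92 and -1.57, and DNA repair genes 10 of 24 and 19 of 28, with -0.73 and -1.25. Histone genes had 5 of 30 and 19 of 37 lower, with -0.41 and -1.02, and noncoding RNA genes 8 of 19 and 7 of 20, with -0.79 and -0.71. In the order of these lists the lower members are 50% and 61.5%, 41.7% and 67.9%, 16.7% and 51.4%, and 42.1% and 35%. Of all tested genes, 40% and 46.8% were lower. Gas5, the host of small nucleolar RNAs, was expressed in all 15 few-gene cells and differed by 0.59 and 0.09.

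The HSC list had 12 of 38 members lower and 3 higher in the old mouse, a median of -0.70, and 22 of 39 lower and 2 higher (Ifitm3 and Cd27) in the young, a median of -1.09. The old median turned to 0.21 for the log2 ratio of mean CPM and to 0.049 under TMMwsp. Platelet genes, which mark HSCs primed for megakaryocytes, had 8 of 19 lower (median -0.73) in the old and 8 of 17 (median -0.96) in the young mouse, with 0 and 2 higher. These are 42.1% and 47.1% of the members, beside 40% and 46.8% of all tested genes lower. Among genes of platelet priming that the study names, Selp was expressed in 5 of 10 old few-gene cells, Sdpr in 5, Itgb3 in 6, Clu in 5, Fhl1 in 3 and Tgm2 in 4, against 42, 51, 40, 22, 34 and 42 of 62 kept old cells. The young few-gene cells expressed Selp (H5), Fhl1 and Tgm2 in 1 of 5 each and the other 3 in none.

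**Figure D5:**
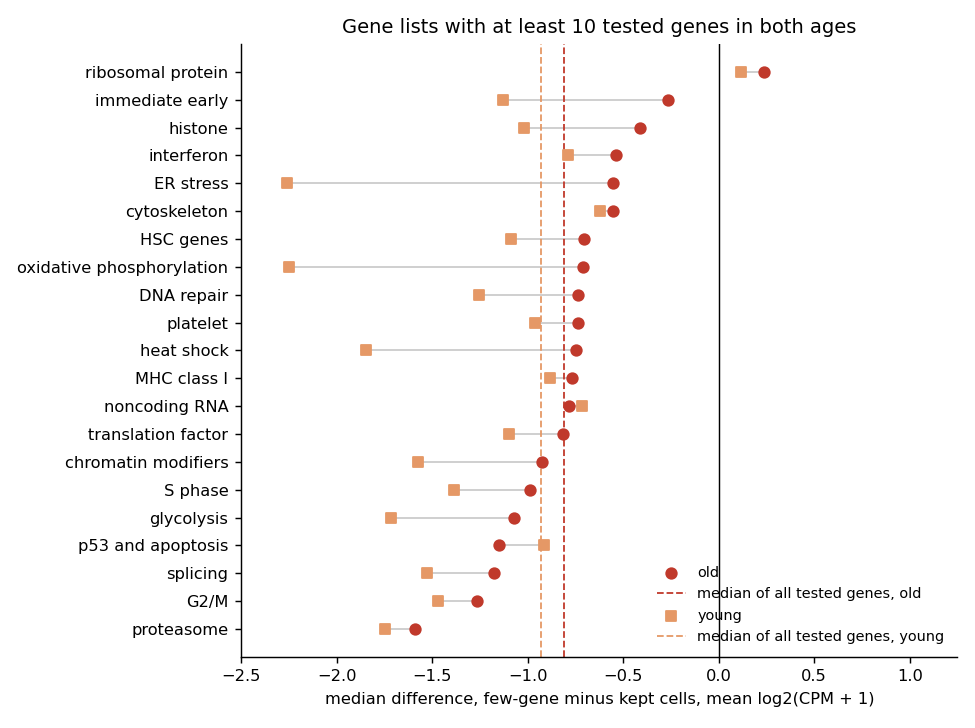
Median difference of mean log2(CPM + 1), few-gene minus kept cells, for the gene lists with at least 10 tested genes in both ages, old as circles and young as squares, with dashed lines at the medians of all tested genes (-0.81 old, -0.93 young). Ribosomal protein genes alone lie above 0 (0.24 and 0.12), and endoplasmic reticulum stress and oxidative phosphorylation genes lie lowest in the young mouse (-2.26 and -2.25).

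Lists of other lineages held few tested genes, and their counts are to be read beside the 40% (old) and 46.8% (young) of all tested genes that were lower. In the old and the young mouse, 1 of 4 and 4 of 7 progenitor genes were lower, 2 of 4 and 1 of 4 erythroid, 3 of 3 and 2 of 3 granulocyte, 1 of 2 and 1 of 2 B cell, 1 of 4 and 1 of 4 T and NK cell, 3 of 8 and 0 of 7 dendritic cell, and 2 of 3 and 0 of 3 stromal and endothelial genes. Macrophage and mast cell lists had 0 tested genes in the old and 1 each in the young mouse, none lower by at least 1, and of the sex-linked list 1 of 5 (old) and 1 of 1 (young) were lower. Lyz2, lysozyme, was expressed in 2 of 10 old and 0 of 5 young few-gene cells, against 43 of 62 and 43 of 52 kept cells, the highest being G5 with 11.05. H2-Aa, an MHC class II chain in the dendritic list, was expressed in 7 of 10 old few-gene cells and 38 of 62 kept old cells, and in 0 of 5 and 8 of 52 in the young mouse.

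Pairs of few-gene cells had no higher median r than pairs of a few-gene and a kept cell. Over the tested genes, pairs of old few-gene cells had a median r of 0.314 (45 pairs, 0.265 to 0.352), pairs of a few-gene and a kept cell 0.331 (620 pairs), and pairs of kept cells 0.354 (1891 pairs). The medians of the young mouse were 0.323, 0.332 and 0.357. A pair of old few-gene cells shared a median of 34.04% of the genes expressed in either, and a pair of kept cells 42.96%. With the mean of the kept cells, the old few-gene cells had an r of 0.495 (D11) to 0.577 (F7) against 0.538 to 0.628 for kept cells, and D11 and E1 (0.501) lay below every kept cell. All pairs share the same genes, and their depth differs. Both measures also depend on how many genes a cell expresses, which chose the cells, so the order of these values is no finding.

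The number in the cell names and transcript length were looked at beside the gene number. The names of 4 of 10 (40%) old and 2 of 5 young few-gene cells carried the number 1 or 12, against 10 of 62 (16.1%) and 7 of 52 (13.5%) kept cells. Numbers 7 to 12 were carried by 7 of 10 and 3 of 5 few-gene cells, against 31 of 62 and 22 of 52 kept cells. The labels do not say whether the number is a position. Transcript length was known for 91.5% of the tested genes of the old mouse. There, genes with a longest coding transcript of at most 1000 bases had a median difference of -0.57. Those above 6000 bases had -0.90, and the same medians of the young mouse were -1.02 and -0.92. Their part in the low gene number was not tested.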

How the data were processed

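The deposited values are raw read counts per gene and cell, made by the authors with TopHat2 2.0.10 on mm10 and rpkmforgenes, with no normalization and no molecular identifiers. The table held 15181 genes (15090 names matched RefSeq), 21 of them joined entries, and 0 mitochondrial genes. Counts were divided by each cell's total and given as log2(CPM + 1), expressed above 2. A gene was tested for size, with no p-value, when at least 10% of the few-gene and kept cells of its age, pooled, expressed it, and called at a difference of mean log2(CPM + 1) of at least 1. Members and gene lists were chosen with earlier results of these data known. Named were the 8 highest and 8 lowest genes of the old mouse and of both ages together, up to 5 members a list by kept level, 14 genes the study names and each cell's highest gene. Genes outside this rule, such as Ly6a, Cd27, Vwf, Slamf1, the Y-linked genes, Xist, Sept2, Cdc42se1, Kmt2a, Psma6, Cox7c, Atp5o, Capzb, Fosb, Dusp1, Klf2, Sfpq, Dkc1, Sod2, Grk4 and Vmn1r58, were chosen after their values were seen. Equal depth was reached by thinning to 250000 reads. Python 3.11.15 with pandas 2.3.3, numpy 2.4.6, scipy 1.17.1 and matplotlib 3.10.9, and R 4.3.3 with edgeR 4.0.16 for TMMwsp factors, were used, and the scripts were tested on simulated data. Alternatives were pseudocount, averaging, scaling, depth, filters, cells left out and comparison cells.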

Additional observations from a re-analysis of the deposited data

Results flagged for a closer look

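Of 93 sets of values over the old or the young few-gene cells, 18 had 1 cell far from the others by Dixon's criterion. The sets share cells and measures, and some were chosen after their values were seen. The criterion's nominal 1 in 20 does not apply to such sets, so no number expected by chance is given. E12 was that cell for 4 of the 6 sets in the old mouse. Its S-phase genes took 1.42% of the counts, although Pcna of that list had 0 reads in E12. E12 had the lowest log2(CPM + 1) of Ly6e (2.40), Fos (2.07) and Egr1 (3.48). The others in the old mouse were Sept2 in G5 (1.32) and Pkm in A8 (4.21), both low.

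In the young mouse, C8 was the cell for Kcnq1ot1 (4.77), for 93 missing genes of those found in every kept old cell, for Gata2 (11.12) and for Ube2v1 (9.06). D7 was low in Fos (0.48) and high in Hspa5 (9.19) and Calr (6.35). G12 was high in Eif1a (7.42) and Atp5a1 (8.78), H5 low in Rplp0 (8.35) and high in the summed odorant and vomeronasal receptor genes (1416 CPM), and C1 high in its share of S-phase genes (0.299%).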

How the results depend on the processing

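No paired analysis was possible because each age is 1 mouse and cells carry no shared replicate number. With a pseudocount of 0.1 CPM, the median over all genes was -1.25 (old) and -1.45 (young), and that of G2/M genes -1.85 and -2.04. As the log2 ratio of mean CPM, 1311 (old) and 1212 (young) genes were higher, the young median was -2.35, and list medians were 0.21 (HSC, old), -0.48 (HSC, young), 0.012 and -2.35 (immediate early), -1.80 and -4.51 (G2/M) and -4.08 (S phase, young). Under TMMwsp, 880 and 1452 genes were higher and 2054 lower in the old mouse, the medians were -0.39 and -0.56, and those of lists 0.049 and -0.45 (HSC), 0.53 and -0.24 (immediate early), 1.37 and 1.58 (ribosomal) and -0.75 (G2/M, old). Without a filter the medians were -0.38 and -0.48 and the correlation between the ages 0.24. With genes in at least 50% of kept cells, 53 and 141 were higher and 1742 and 1814 lower, with medians of -1.19 and -1.29 and -2.54 for S phase in the young mouse. At 100000 reads the few-gene cells held a median of 2536 and 2280 genes, and with all reads 4971 and 4791. The 10 highest genes took 11.5% and 9.84% of counts and the 1000 highest 93.2% and 96.1%. Counting 1 read as expressed, the gap at level 4 to 5 was -9.38 and -10.5 points. Leaving out each cell in turn gave -0.62 to 0.13 for the old immediate early median (0.13 without E12) and -0.084 to 0.32 for the young ribosomal median (-0.084 without C8). Without D11, E1 and C8, an alternative chosen after seeing the data, 427 genes were higher in the old mouse and the young ribosomal median was -0.084. Differences of named genes changed sign as the log2 ratio of mean CPM for Cdc42 (0.072), Dkc1 (0.60), Eif2s3y (0.37), Sdpr (0.36), Sod2 (0.37) and Srsf2 (0.13) in the old and Fosb (1.36), Otub1 (0.69), Rock1 (0.38), Usp15 (1.34), Vkorc1 (1.55) and Vmn1r58 (0.073) in the young mouse, under TMMwsp for Csf3r (0.19), Fos (0.065), Syncrip (0.066) and Usp15 (0.064) in the young mouse, and without the 3 cells for Srsf2 (0.46, old) and Fosb (0.32, young). The cause was not tested.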
